A study of Mus musculus with 16 samples.

Results

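The mouse short-read RNA-Seq count table was searched for 9 genes, Gm15441, E030018B13Rik, Gm15998, AC123853.3, E230001N04Rik, AC154912.5, AC154912.3, 9530026P05Rik and Gm27252, 9 of 55385 genes listed and of 37084 with at least 1 count. They were picked by name, through their gene identifiers, because their level differed between fasting and fed mice in at least 1 tissue, so their own fasting changes are given below as a description and carry no test. They were grouped as noncoding RNAs that follow fasting, but the annotation bears this out for only 7 of the 9. E030018B13Rik is annotated as protein coding in both GENCODE and RefSeq, and AC123853.3 is an unprocessed pseudogene, while Gm15998 and AC123853.3 were lower, not higher, with fasting in liver.

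Male C57BL/6 mice were fed freely (fed) or deprived of food for 24 h (fasting), and muscle, liver, white adipose tissue, brown adipose tissue, heart, spleen, kidney and lung were taken. The mice were 12 weeks old when bought and were acclimatised for a minimum of 10 to 14 days. For each tissue, equal parts from the 3 mice of a state were combined into 1 pool and sequenced as 1 library, 16 libraries in all. No value therefore has a replicate error, the 8 tissues of a state come from the same mice, and a difference between the libraries of a tissue cannot be told apart from a difference between those pools. In bulk tissue, fewer cells of a type and less RNA per cell cannot be told apart either.

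Fasting lowers insulin and raises glucagon, glucocorticoids and circulating fatty acids. These signals reach genes through FoxO factors, which insulin holds out of the nucleus, through the glucocorticoid receptor, and through PPAR-alpha, a nuclear receptor that binds fatty acids and drives fat oxidation and ketone production in liver. Many long noncoding RNAs are transcribed beside or across protein-coding genes, as antisense, head-to-head or intronic transcripts, and their level can follow that of the neighbour or depart from it. Gm15441 is known as a liver RNA antisense to Txnip, the gene of thioredoxin-interacting protein, an arrestin that restrains glucose uptake.

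On GRCm38 the 9 genes lie at 6 places. Gm15441 (antisense type, chr3:96555765-96566801, minus strand, 1676 exon bases) spans Txnip, with 606 of its exon bases opposite Txnip exons. Gm15998 (antisense type, chr3:89315439-89318907, plus strand, 1844 exon bases) lies within Efna3, the gene of an ephrin ligand, with 344 exon bases opposite its exons. E030018B13Rik (chr7:63916857-63920539, 1015 exon bases) and Gm27252 (processed transcript, chr7:63896533-63899698, 717 exon bases) both lie on the plus strand within Klf13, a Krüppel-like transcription factor gene of the minus strand, 17159 bases apart, and share no exon base with it.

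The Fkbp5 locus on chromosome 17 holds 3 of the 9 genes. Fkbp5 encodes a co-chaperone that lowers the hormone affinity of the glucocorticoid receptor and is itself a classic target of that receptor. AC154912.5 (sense intronic type, chr17:28424723-28426430, 1708 bases) and AC154912.3 (type TEC, which GENCODE gives to gene models awaiting experimental evidence, chr17:28457484-28461095, 3612 bases) are single exons inside Fkbp5, on its strand, and overlap none of its exons. E230001N04Rik (lincRNA, chr17:28522720-28525398, plus strand, 2679 bases) starts 5193 bases beyond the 5′ end of Fkbp5 and runs the other way, with 332 bases opposite another lincRNA, Gm20109.

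The remaining places hold 9530026P05Rik and AC123853.3. 9530026P05Rik (antisense type, chr6:92940329-93272979, plus strand, 5750 exon bases in 14 merged exons) overlaps the 5′ end of Adamts9, the gene of a secreted metalloprotease, head to head and without a shared exon base. AC123853.3 (chr19:44252517-44261446, plus strand, 818 exon bases) lies between Scd3 and Scd2 in the cluster of stearoyl-CoA desaturase genes, whose enzymes make monounsaturated fatty acids.

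A few sequences bear on what the counts can tell. The first is the exon of Gm15441 that is antisense to Txnip, the second exon of transcript Gm15441-202 at chr3:96559678-96559842 (minus strand, GENCODE M21 on GRCm38). All 165 of its bases lie opposite a coding exon of Txnip, so that a read from it can be assigned to Gm15441 only by its strand.
Gm15441-202 exon: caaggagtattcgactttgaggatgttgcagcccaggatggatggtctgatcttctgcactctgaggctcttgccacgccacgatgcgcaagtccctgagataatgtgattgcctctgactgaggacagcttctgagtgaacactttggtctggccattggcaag

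The second set shows how far AC123853.3 can be told from its functional relatives. Local alignments to their coding sequences covered 517 (Scd4) to 596 (Scd2) of its 818 bases. Over the aligned part, its transcript was 85.1% identical to Scd1, 86.2% to Scd2, 85.2% to Scd3 and 89.2% to Scd4. Of its 719 windows of 100 bases, the read length of this study, 26 occur unchanged in Scd1 or Scd3. Below is a stretch of 60 bases, starting at base 135 of the AC123853.3 transcript, with the median number of mismatches to Scd1. Capitals mark bases that differ from AC123853.3, 5 in Scd1, 4 in Scd2, 4 in Scd3 and 2 in Scd4.
AC123853.3: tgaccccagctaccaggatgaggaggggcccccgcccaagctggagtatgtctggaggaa
Scd1: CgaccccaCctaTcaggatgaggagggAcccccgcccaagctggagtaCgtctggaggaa
Scd2: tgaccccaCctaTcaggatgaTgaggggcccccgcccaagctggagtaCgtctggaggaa
Scd3: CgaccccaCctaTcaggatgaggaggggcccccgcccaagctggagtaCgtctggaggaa
Scd4: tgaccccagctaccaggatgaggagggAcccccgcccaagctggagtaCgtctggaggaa

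The third is a promoter. RefSeq's table of promoters (GRCm38.p6, from 250 bases before to 50 after the start) holds 5 of the 9 genes, Gm15998, 9530026P05Rik, Gm27252, E030018B13Rik and E230001N04Rik. Both strands were searched for 6 motifs. The FoxO motif was TGTTTAC, and the glucocorticoid receptor motif was TGTTCT, which 18.97% of 32851 promoters hold. The full glucocorticoid response element sets that motif and its reverse complement face to face across 3 bases (0.00913% of promoters), and the PPAR element repeats AGGTCA after 1 base (0.0396%). The E-box was searched as CACGTG (7.15%) and the TATA box by the 6 letters TATAAA (13.6%). The 5 promoters held 1 match, TGTTTAC in that of 9530026P05Rik, 243 bases before the start that RefSeq gives, shown in capitals at chr6:92940332-92940631 (plus strand). RefSeq's start lies downstream of the GENCODE start at base 92940329, so the match and the whole window lie inside the GENCODE gene model that was counted. The same letters were found in 3.65% of all promoters, and the promoter of Txnip holds them on the minus strand, 121 bases before its RefSeq start. The other matches in promoters of neighbours were the E-box in Fkbp5 (169 bases before the start) and Chrna7 (66), and TGTTCT in Tulp1 (59, minus strand). A match is a description of letters, not a site.
9530026P05Rik promoter: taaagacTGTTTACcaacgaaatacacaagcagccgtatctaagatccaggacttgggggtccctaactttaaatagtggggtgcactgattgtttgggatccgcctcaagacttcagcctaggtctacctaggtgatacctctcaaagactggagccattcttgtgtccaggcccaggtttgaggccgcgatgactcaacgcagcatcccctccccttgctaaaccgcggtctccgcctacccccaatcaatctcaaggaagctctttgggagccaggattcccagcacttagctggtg

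Library totals lay between 14245178 and 36069968 counts. Counts were scaled to the library total (CPM), so that 3 counts, taken here as the floor, equal 0.0832 to 0.211 CPM. Intervals cover counting error only. Each library had the highest sum of its own tissue's 3 marker genes, above all libraries of other tissues, in 8 of 8 tissues. Markers of other cells differed between the pools in some tissues. The summed CPM of 5 pancreatic acinar genes was 82.6 in fed and 167 in fasting liver, and 370 in fed and 11.5 in fasting spleen, that of 3 red cell genes was 2950 in fed and 7025 in fasting spleen, and the atrial gene Nppa stood at 198 CPM in fed and 27.4 CPM in fasting lung. The summed CPM of the 3 spleen markers was 342 in fed and 78.8 in fasting white adipose and 256 and 132 in lung, and that of the 3 muscle markers was 1907 and 910.1 in brown adipose. Other sums above 50 CPM that differed by over 1.5 times were heart markers in lung (815 fed and 388 fasting), liver markers in heart (21.8 and 74.0), white adipose markers in muscle (76.4 and 36.7) and acinar genes in kidney (58.3 and 23.0). The kidney sum was almost all Cela1 (58.1 fed and 22.8 fasting), and every other acinar gene was at most 0.116 CPM there. The part of all these markers in the changes below was not tested.

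To ask whether sense and antisense reads were kept apart, genes whose exons lie wholly under another gene's exons were examined. Of 736 genes covered by exons of the same strand, 98.9% had no count in any library (Wilson 95% interval 97.9 to 99.4), since reads that fit several genes are dropped. Of 438 genes covered by exons of the opposite strand, 39.0% had none (34.6 to 43.7), against 37.3% of 43669 genes without any shared exon base. The authors' counting thus used strand, so that reads of the genes across from Gm15441, Gm15998 and E230001N04Rik were as a rule not counted for them. It does not measure the share of reads with the wrong strand. Outside fasting liver and kidney, Gm15441 was at most 1.09% of Txnip per kilobase of exon, and the part of wrong-strand Txnip reads in its counts was not tested. The pair of genes inside Fkbp5 has no such protection, because unspliced Fkbp5 RNA lies on their strand, and their counts and those of unspliced Fkbp5 RNA cannot be told apart.

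Gm15441 was far higher with fasting in liver and kidney, and higher by far less in the other 6 tissues. Fed levels were 0.581 CPM in muscle, 0.521 in liver, 1.20 in white adipose, 0.482 in brown adipose, 0.813 in heart, 1.28 in spleen, 2.09 in kidney and 1.60 in lung. Fasting levels, in the same order, were 1.03, 61.2, 1.93, 1.40, 1.38, 2.19, 127 and 2.05 CPM. All 8 fasting libraries were above their fed partner, but in 6 tissues they lay between 1.03 and 2.19 CPM, close to the fed range, and liver and kidney stood far above it. The part of wrong-strand Txnip reads in these low levels was not tested.

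In liver the count of Gm15441 went from 12 to 1528, a fasting-to-fed ratio of 117 (exact 95% interval 67.1 to 228). In kidney it went from 47 to 3272, a ratio of 60.6 (45.5 to 82.7). In brown adipose it went from 8 to 20, a ratio of 2.91 (1.23 to 7.65), and in spleen the ratio was 1.71 (1.08 to 2.76). In lung the ratio was 1.28, with an interval of 0.882 to 1.89 that includes 1, and intervals also included 1 in muscle, white adipose and heart.

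Txnip, on the other strand, was higher with fasting in all tissues and without the liver and kidney excess. Its log2 change across tissues was 1.39 with an SE of 0.16 (edgeR's quasi-likelihood test, Benjamini-Hochberg adjusted p = 0.00324), in a model of tissue and state over the 16 libraries in which 2.31% of 17296 genes were called higher and 2.08% lower. These are 400 and 359 genes, against 313 and 638 when library totals alone scaled the counts. Per kilobase of exon, Gm15441 stood at 0.0579% to 1.09% of Txnip in fed tissues. In fasting it was 47.4% of Txnip in liver and 20.1% in kidney, and between 0.0800% and 0.358% in the other 6 tissues. Gm15441 rose by more than Txnip, on the log2 scale, in 4 of 8 tissues. The flanking gene Hfe2, the hemojuvelin gene of iron metabolism, had a log2 change of -0.59 (SE 0.23, edgeR adjusted p = 0.151) and was called lower within 4 tissues, with a fasting-to-fed ratio of 0.669 in muscle, 0.293 in brown adipose, 0.584 in heart and 0.423 in lung. Gm16253, on the other side, had too few counts to be tested across tissues, peaked at 1.44 CPM and was called higher within 1 tissue.

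**Figure D1:**
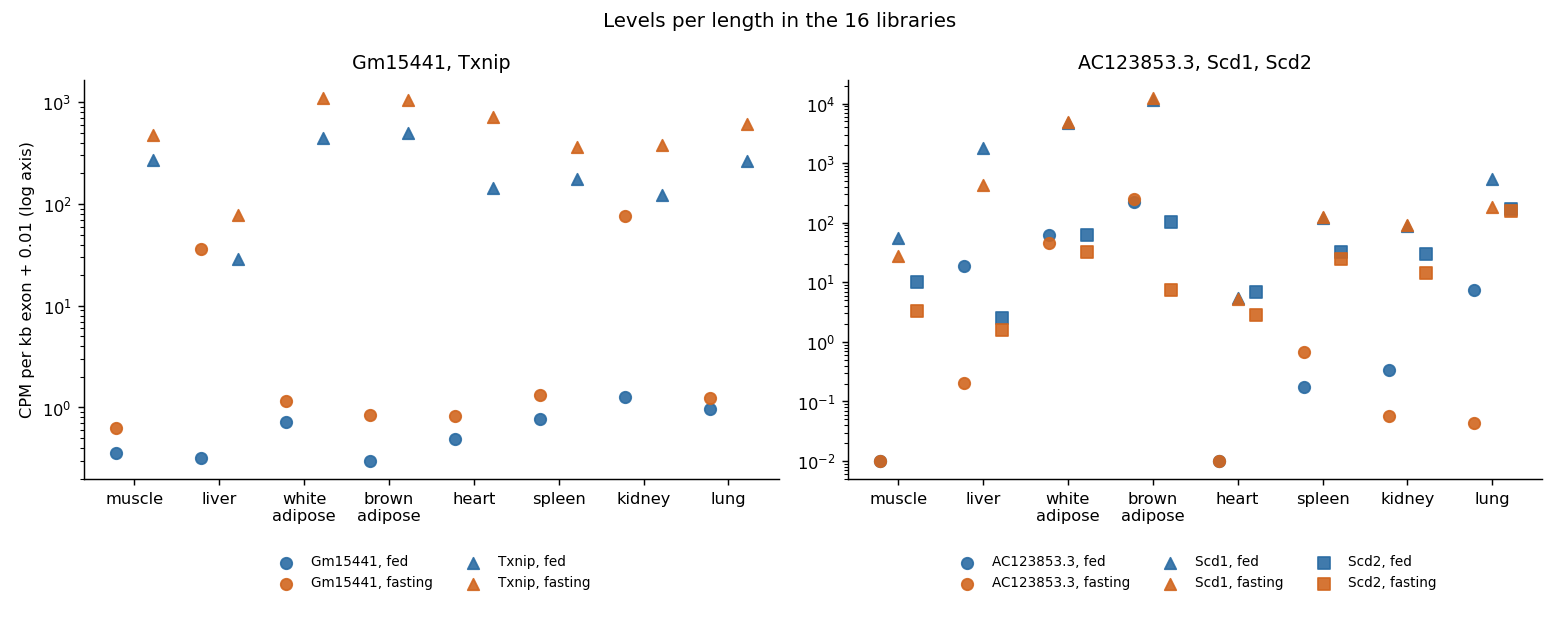
Levels per kilobase of exon (CPM per kb + 0.01, log axis) of Gm15441 and Txnip (left) and of AC123853.3, Scd1 and Scd2 (right) in each tissue, blue for the fed and orange for the fasting library, 1 library per point. Gm15441 reached 47.4% and 20.1% of Txnip in fasting liver and kidney, and AC123853.3 was high in both adipose tissues in either state and low in fasting liver and lung.

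E030018B13Rik was a liver and white adipose gene of the fasted state. Fed levels were 0.0415 CPM in muscle, 0.130 in liver, 0.343 in white adipose, 0.301 in brown adipose, 0.0998 in lung and 0 in heart, spleen and kidney. Fasting levels were 0.0323 CPM in muscle, 21.2 in liver, 2.99 in white adipose, 0.562 in brown adipose, 0.0655 in heart, 0.0719 in spleen, 0 in kidney and 0.139 in lung. Apart from the fasting liver and white adipose libraries, no library held more than 8 counts of it.

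In liver the count of E030018B13Rik went from 3 to 530, a ratio of 163 with an interval of 55.5 to 793. In white adipose it went from 8 to 82, a ratio of 8.70 (4.22 to 20.8). Muscle, heart, spleen and kidney were at or under the floor in both states and give no fold. A kidney count of 0 in both states allows up to 0.134 CPM in the fed and 0.116 CPM in the fasting library. Since GENCODE and RefSeq give E030018B13Rik as protein coding, it is not a noncoding RNA by either.

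Gm27252, the other gene inside Klf13, was higher with fasting in all tissues at low levels. Its fed levels were 0.706 CPM in muscle, 1.30 in liver, 0.429 in white adipose, 0.723 in brown adipose, 2.27 in heart, 0.309 in spleen, 0.134 in kidney and 0.765 in lung. Fasting levels in the same order were 2.65, 4.85, 1.93, 1.97, 5.11, 1.51, 0.970 and 2.61 CPM. Heart and liver were highest and kidney lowest in both states, and the lowest fasting libraries lay below the highest fed ones.

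The ratio for Gm27252 ran from 2.26 in heart (interval 1.52 to 3.40) to 7.26 in kidney, where the fed library held 3 counts (2.21 to 37.6). The log2 change averaged 1.91 with an SD of 0.49 over the 8 tissues. Its change varied little between tissues beside that of its neighbour 17159 bases away, E030018B13Rik, whose log2 change was 7.24 in liver and 0.44 in lung.

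Klf13 itself was not called across tissues. Its log2 change across tissues was 0.17 (SE 0.10, edgeR adjusted p = 0.359), and it was called higher within 1 tissue, brown adipose. Per kilobase, Gm27252 went from 29.1% to 92.2% of Klf13 in liver and from 38.9% to 94.1% in heart, and its share rose in 8 of 8 tissues. E030018B13Rik went from 2.06% to 285% of Klf13 in liver and from 1.90% to 17.9% in white adipose.

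**Figure D2:**
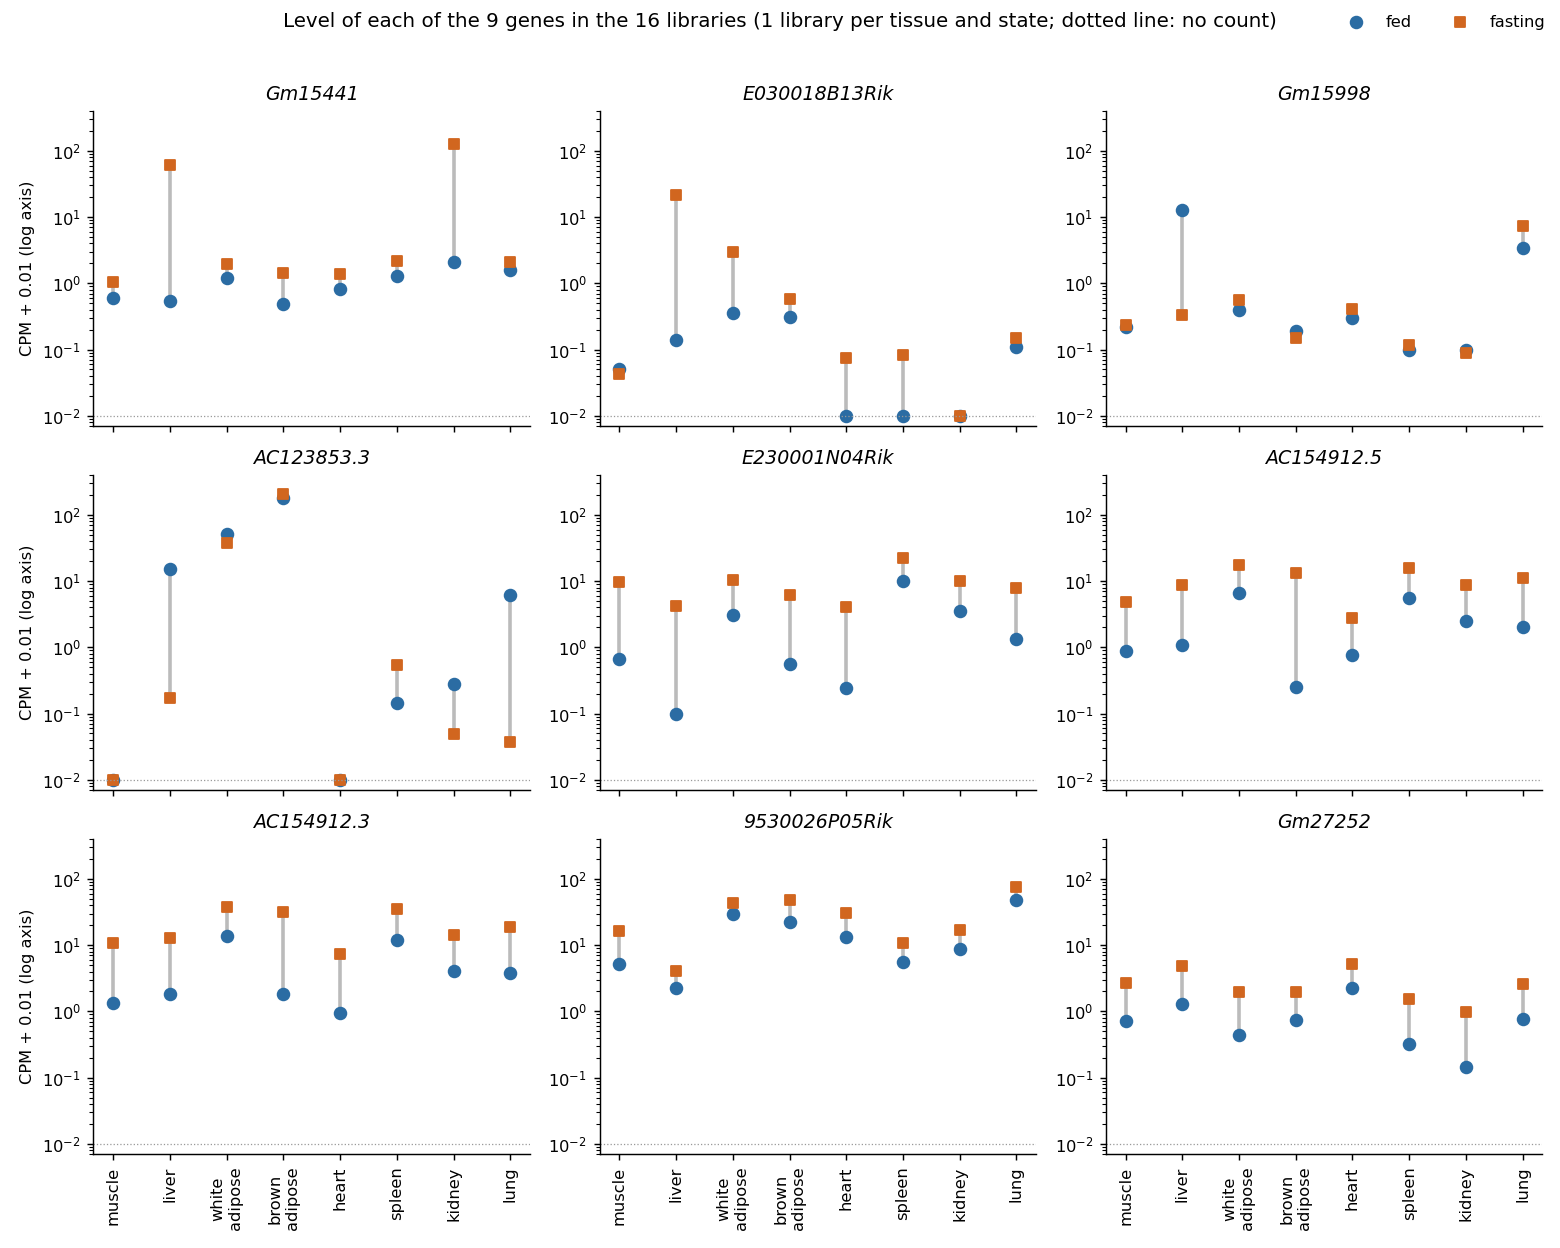
Level of each of the 9 genes in the 16 libraries (CPM + 0.01, log axis) by tissue, blue circles for fed and orange squares for fasting, 1 library per point, with the dotted line marking no count. Gm15441 and E030018B13Rik stood apart in 2 fasting tissues each, and Gm15441, E230001N04Rik, AC154912.5, AC154912.3, 9530026P05Rik and Gm27252 were higher with fasting in all 8.

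All 3 genes at the Fkbp5 locus were higher with fasting in every tissue. Fed levels of the lincRNA E230001N04Rik were 0.665 CPM in muscle, 0.0868 in liver, 3.09 in white adipose, 0.542 in brown adipose, 0.232 in heart, 9.93 in spleen, 3.52 in kidney and 1.33 in lung. Fasting levels in the same order were 9.79, 4.25, 10.3, 6.18, 4.06, 22.1, 9.93 and 7.82 CPM. Fed libraries spanned a wider range of folds than fasting ones, and spleen, kidney and white adipose, the highest fed tissues, showed the smallest changes.

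The log2 change of E230001N04Rik was 3.86 in muscle, 5.46 in liver, 1.74 in white adipose, 3.49 in brown adipose, 4.07 in heart, 1.15 in spleen, 1.49 in kidney and 2.55 in lung. The fed liver library held 2 counts against 106, a ratio of 48.9 with an interval of 13.2 to 409. In spleen the count went from 225 to 615, a ratio of 2.22 (1.91 to 2.60). The overlapping lincRNA Gm20109 reached at most 0.575 CPM and the next gene on, Armc12, at most 3.10 CPM, both in too few libraries to be tested. Each was called higher within 1 tissue.

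AC154912.5, inside Fkbp5, stood in the fed state at 0.872 CPM in muscle, 1.09 in liver, 6.53 in white adipose, 0.241 in brown adipose, 0.755 in heart, 5.47 in spleen, 2.45 in kidney and 1.996 in lung. In fasting it stood, in that order, at 4.75, 8.69, 17.7, 13.1, 2.75, 15.99, 8.73 and 11.1 CPM. Brown adipose was the lowest fed tissue and the third highest fasting one, and its count went from 4 to 187, a ratio of 54.5 (20.9 to 202). In the other 7 tissues the log2 change lay between 1.44, in white adipose, and 2.99, in liver.

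AC154912.3, the longer model inside Fkbp5, was also higher with fasting in every tissue. Its fed levels were 1.33 CPM in muscle, 1.82 in liver, 13.8 in white adipose, 1.81 in brown adipose, 0.929 in heart, 12.01 in spleen, 4.10 in kidney and 3.76 in lung. Fasting levels were 10.6, 12.9, 37.5, 32.2, 7.47, 35.6, 14.4 and 18.99 CPM. White adipose and spleen were high in either state, and brown adipose changed most, from 30 to 458 counts, a ratio of 17.8 (12.3 to 26.7).

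Fkbp5 rose across tissues by 2.03 on the log2 scale (SE 0.30, edgeR adjusted p = 0.0110). Within tissues its log2 change was 3.65 in brown adipose, 2.61 in liver and 0.53 in kidney. Per kilobase, AC154912.5 stood at 12.4% to 55.3% of Fkbp5 in fed and 18.2% to 57.5% in fasting libraries, and AC154912.3 at 9.64% to 55.6% and 19.2% to 62.1%. Across the 8 tissues, which share both pools of mice, the log2 changes of AC154912.5 and AC154912.3 followed that of Fkbp5 with a Pearson r of 0.83 and 0.87, and those of E230001N04Rik with 0.65. AC154912.3 rose by more than Fkbp5 in 7 tissues and AC154912.5 in 6, the larger gaps being in kidney, where the differences of log2 change were 1.29 and 1.30, and for AC154912.5 in brown adipose, 2.06.

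Genes lying inside another gene on its strand followed the host in the whole table as well. Over 1020 such pairs outside the 9 genes that shared no exon base, the log2 change of the inner gene across tissues tracked that of the host with r = 0.644 across pairs, which share libraries and sometimes hosts. In 42 of these pairs the host was called higher, and the inner gene had a positive change in 41. Over 45 pairs on opposite strands, the arrangement of Gm27252 in Klf13, r was 0.238. On that scale the changes were 2.36 for AC154912.5, 2.45 for AC154912.3 and 2.03 for Fkbp5, and 1.88 for Gm27252 and 0.17 for Klf13. As AC154912.5, AC154912.3 and Gm27252 were chosen for their change, nothing is read from where they lie among the other pairs.

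**Figure D3:**
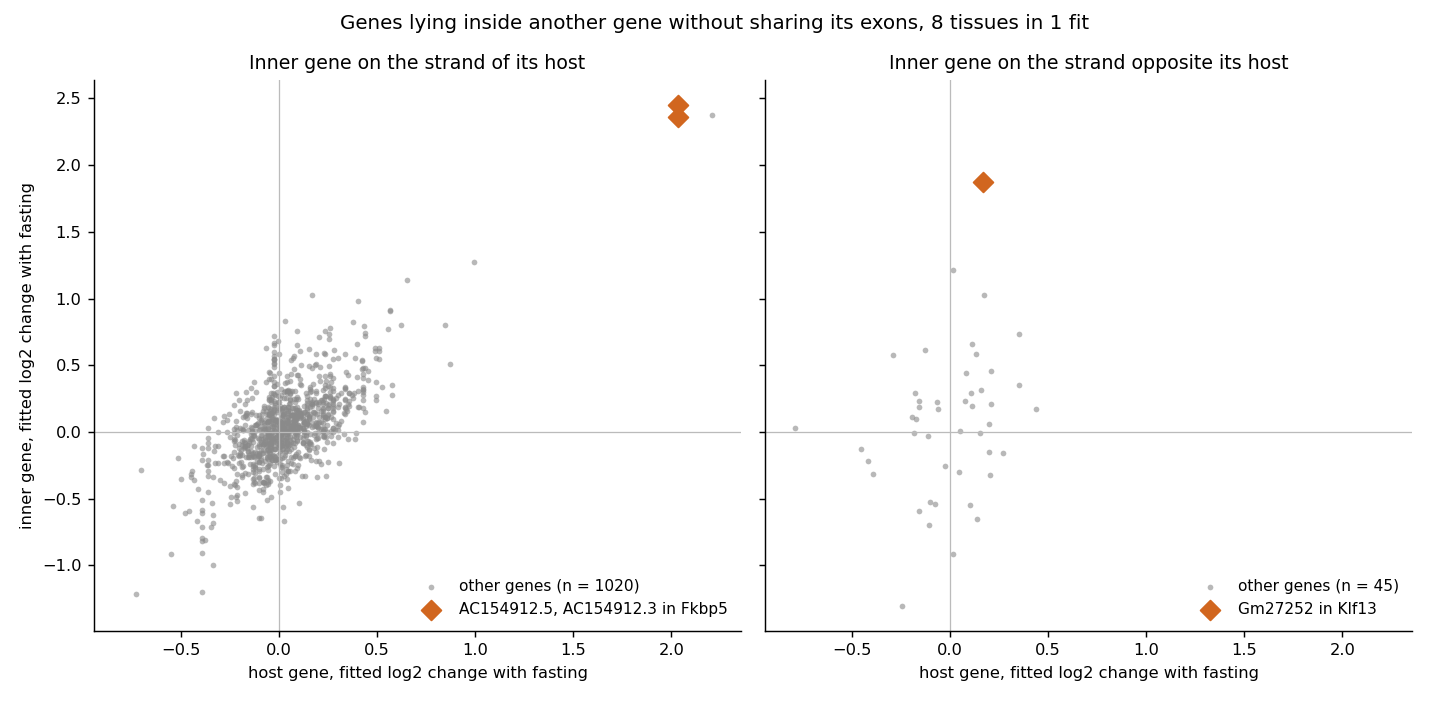
Fitted log2 change with fasting of genes lying inside another gene (vertical axis) against that of the host (horizontal axis), for inner genes on the host's strand (left, 1020 pairs in grey) and on the opposite strand (right, 45 pairs in grey), with orange diamonds for AC154912.5 and AC154912.3 in Fkbp5 and for Gm27252 in Klf13. The pair in Fkbp5 lies at 2.36 and 2.45 over a host with a change of 2.03, and Gm27252 lies at 1.88 over a host with a change of 0.17.

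9530026P05Rik had the smallest mean log2 change and the smallest SD between tissues of the 6 genes that were higher in all 8 tissues. Fed levels were 5.23 CPM in muscle, 2.21 in liver, 29.1 in white adipose, 22.5 in brown adipose, 13.4 in heart, 5.47 in spleen, 8.64 in kidney and 47.5 in lung. Fasting levels in the same order were 16.6, 4.01, 42.7, 47.6, 30.9, 10.96, 16.99 and 75.3 CPM. Lung was highest and liver lowest in both states, and the difference between these tissues was wider than any between fed and fasting.

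The ratio for 9530026P05Rik lay between 1.47 in white adipose (interval 1.34 to 1.62) and 3.17 in muscle (2.60 to 3.88). The log2 change averaged 1.0 with an SD of 0.34 over tissues. Adamts9, which starts beside it and runs the other way, had a log2 change of -0.13 across tissues (SE 0.12, edgeR adjusted p = 0.522) and was called lower in liver alone. Per kilobase, 9530026P05Rik went from 51.8% to 138% of Adamts9 in fed libraries to 68.1% to 319% in fasting ones, and its share was larger with fasting in 8 of 8 tissues.

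The gene models Gm44224, Gm43923 and Gm44220, all of type TEC, lie within 9530026P05Rik on its strand without sharing its exons. They rose across tissues by 1.04 (adjusted p = 0.0183), 0.93 (adjusted p = 0.00418) and 1.11 (adjusted p = 0.00734) on the log2 scale in the edgeR fit. Their counts and those of unspliced 9530026P05Rik RNA cannot be told apart, so they are not separate evidence. Magi1, the next gene beyond it, had a log2 change of 0.00 (SE 0.07, edgeR adjusted p = 0.985), which was slightly negative with other scalings. The remaining neighbours of the 9 genes, Gm44627, Tulp1, AC154912.1, Gm5313, Gm15737 and Chrna7, had too few counts to be tested across tissues. Within tissues AC154912.1 was called higher in liver (22 to 174 counts) and Tulp1 in lung (18 to 51), and Chrna7 was called lower in kidney (54 to 18).

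Gm15998 went in opposite directions in the 2 tissues where it was abundant. Fed levels were 0.208 CPM in muscle, 12.55 in liver, 0.386 in white adipose, 0.181 in brown adipose, 0.290 in heart, 0.0883 in spleen, 0.0891 in kidney and 3.39 in lung. Fasting levels were 0.226, 0.320, 0.547, 0.140, 0.393, 0.108, 0.0776 and 7.43 CPM. Outside liver and lung no library held more than 15 counts, and brown adipose, spleen and kidney were at or under the floor in both states.

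In liver the count of Gm15998 fell from 289 to 8, a fed-to-fasting ratio of 39.2 (interval 19.6 to 91.5). In lung it went from 102 to 268, a fasting-to-fed ratio of 2.19 (1.74 to 2.78). Efna3, the gene around it, stood at 0 counts in fed and 1 count in fasting liver, and at 1.53 and 2.08 CPM in fed and fasting lung. The neighbouring ephrin gene Efna1 had a log2 change of -0.13 across tissues (SE 0.14, edgeR adjusted p = 0.625). Within tissues Efna1 was called lower in 2 and higher in 1, with log2 changes from -0.84 in liver to 0.68 in spleen. Efna4 had too few counts to be tested.

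AC123853.3, the Scd pseudogene, was high in adipose tissue in both states and lost with fasting in liver and lung. Fed levels were 15.3 CPM in liver, 51.6 in white adipose, 183 in brown adipose, 0.132 in spleen, 0.267 in kidney, 6.12 in lung and 0 in muscle and heart. Fasting levels were 0.160 CPM in liver, 37.9 in white adipose, 205 in brown adipose, 0.539 in spleen, 0.0388 in kidney, 0.0277 in lung and again 0 in muscle and heart. White adipose was lower and brown adipose slightly higher with fasting, whereas liver and lung went from well above the floor to 4 counts and 1 count.

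The fed-to-fasting ratio of AC123853.3 was 95.6 in liver (interval 37.0 to 353) and 221 in lung (39.1 to 8768). In white adipose the fasting-to-fed ratio was 0.735 (0.676 to 0.800) and in brown adipose 1.12 (1.06 to 1.18). In spleen the count went from 3 to 15, a ratio of 4.07 (1.15 to 21.9).

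Scd1, the main desaturase gene of liver and fat, was far above the pseudogene per kilobase in every library. It stood at 8682 CPM in fed and 2113 CPM in fasting liver, and at 2690 and 905 CPM in lung. In white adipose it stood at 23188 and 23775 CPM, and in brown adipose at 55437 and 60840 CPM. Scd1 thus also fell in liver and lung and stayed in adipose tissue, but by 2.04 and 1.57 on the log2 scale where AC123853.3 fell by 6.49 and 7.34.

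Per kilobase, AC123853.3 went from 1.06% to 0.0454% of Scd1 in liver and from 1.36% to 0.0183% in lung, and was 1.97% and 2.01% of it in fed and fasting brown adipose. Scd2, the nearest gene at higher coordinates, 32228 bases away, fell by 3.81 on the log2 scale in brown adipose, where AC123853.3 did not, and its log2 change across tissues was -1.14 (SE 0.34, edgeR adjusted p = 0.0834). On the other side AC125101.1, a gene of antisense type 5947 bases away, reached at most 1.02 CPM, had too few counts to be tested, and was called higher in white adipose (3 to 28 counts) and lower in lung (21 to 9). Scd3 went from 4.40 to 81.8 CPM in brown adipose and held at most 8 counts in any liver or lung library. Scd4, the relative with the highest identity over its aligned part, held 0 counts in both liver libraries. It went from 4.03 to 5.85 CPM in lung, from 1.93 to 1.68 in white adipose, from 0.421 to 2.53 in brown adipose and from 14.6 to 53.9 in heart. Its log2 change across tissues was 0.71 (SE 0.37, edgeR adjusted p = 0.280).

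**Figure D4:**
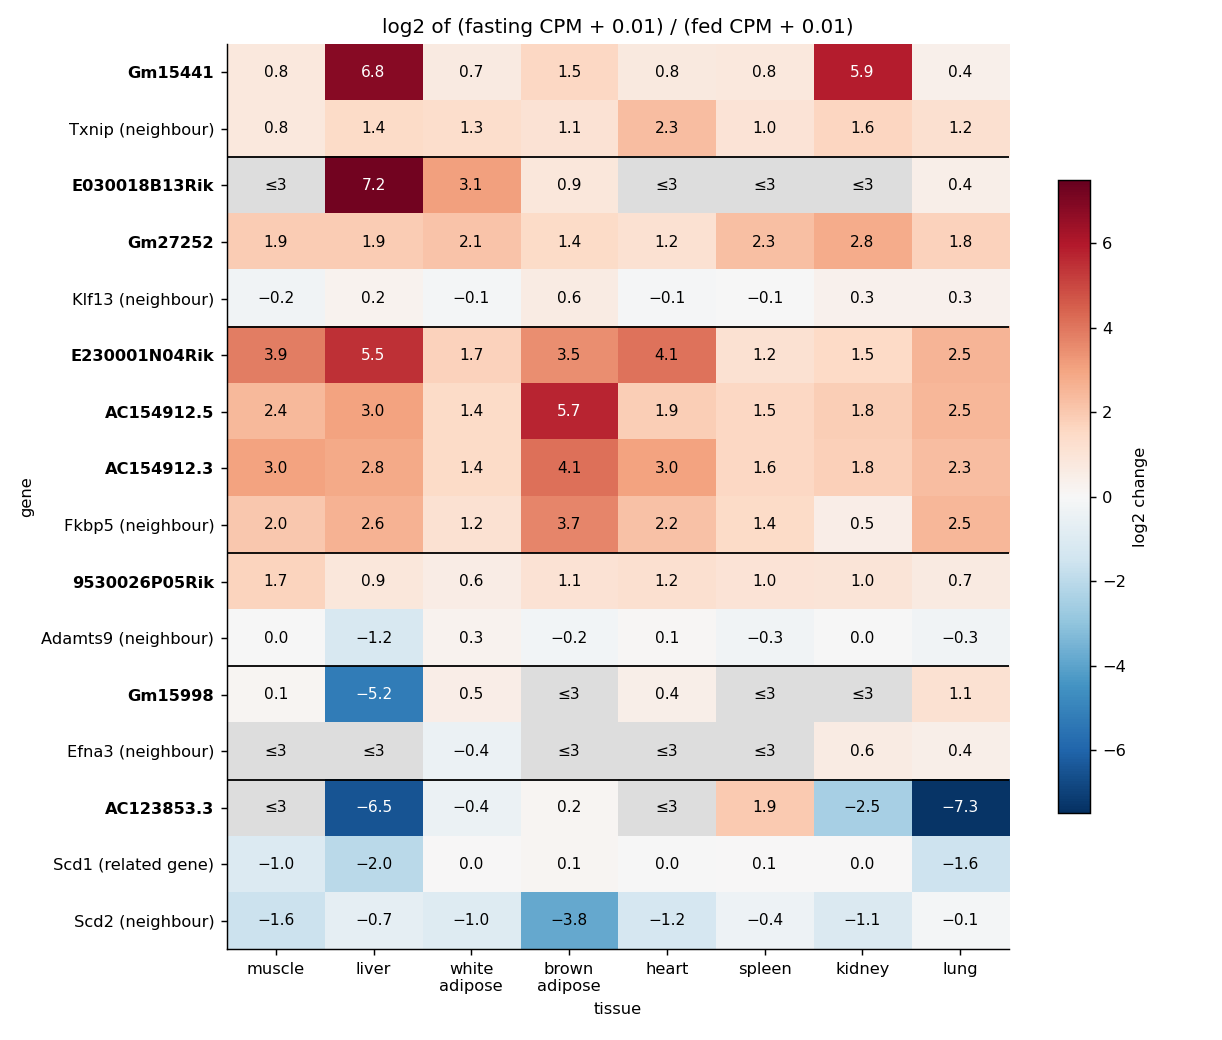
log2 of the fasting over the fed CPM (pseudocount 0.01 CPM) for the 9 genes (bold) and the protein-coding genes beside or around them, or related to them, in the 8 tissues, red for higher and blue for lower with fasting and grey, marked ≤3, where both libraries held at most 3 counts. Txnip and Fkbp5 were higher in all 8 tissues, as were Gm15441, E230001N04Rik, AC154912.5 and AC154912.3, whereas Klf13, Adamts9 and Efna3 were not.

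By the rule of the paper's methods, with p under 0.01 from a Fisher's exact test between the libraries and a log2 change over 0.5 in size, 46 of the 72 pairs of gene and tissue were called higher and 3 lower, and 9 had at most 3 counts in both libraries. Such a call compares 2 libraries, not the conditions, and the genes were chosen on it. In liver 7 of the 9 were called higher and 2 lower, where 4.46% and 9.52% of all genes with a count were. In lung 6 were called higher and 1 lower, where 2.68% and 6.49% of all genes were. In the other 6 tissues none was called lower. The genes called higher there were 5 in muscle (all genes, 4.42% higher and 9.39% lower), 6 in white adipose (13.2% and 5.84%), 6 in brown adipose (5.39% and 7.58%), 5 in heart (4.33% and 5.8%), 5 in spleen (2.31% and 1.62%) and 6 in kidney (2.77% and 3.93%).

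E230001N04Rik, AC154912.5, AC154912.3, 9530026P05Rik and Gm27252 were called higher in all 8 tissues, as were 0.127% of the 17296 genes in the fit. A positive log2 change in all 8 tissues was shared by Gm15441 and by 2.48% of those genes. For none of the 9 was the lowest fasting library above the highest fed one, and this held for 0% of all genes tested. Of the 9 genes, 6 passed the filter on low counts of the fit and E030018B13Rik, Gm15998 and AC123853.3 did not.

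Levels of the 9 genes between tissues are given as a description with no test, because the fasting libraries that chose the genes enter each tissue's mean. For 9530026P05Rik the mean of the fed and fasting level was 61.4 CPM in lung, then 35.9 in white adipose, 35.0 in brown adipose, 22.1 in heart, 12.8 in kidney, 10.9 in muscle, 8.22 in spleen and 3.11 in liver. Neighbours in that order overlapped in their fed to fasting range from white adipose to spleen, and liver lay below all others. The fed lung library (47.5 CPM) stood just under the fasting brown adipose library (47.6 CPM). AC123853.3 was highest in brown adipose (194 CPM) and next in white adipose (44.7 CPM), with ranges apart from each other and from the rest. E230001N04Rik was highest in spleen (16.015 CPM), whose range of 9.93 to 22.1 CPM overlapped that of white adipose (3.09 to 10.3 CPM) and just cleared that of kidney, and Gm27252 in heart (3.69 CPM), whose range overlapped that of liver (3.07 CPM).

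For each gene the 2 genes with the most similar set of 8 tissue changes were sought among 17651 genes, by Pearson's r of log2(CPM + 1) centred within tissue over the 16 libraries, a description that does not weigh the size of a change. The mean change over tissues stays in this r, so a gene that rises a little in every tissue can score high. Nop53, named below, rose by 0.24 to 0.40 in each tissue. This r is therefore not comparable with the r across 8 tissues given for Fkbp5 above. AC154912.3 was most like AC154912.5 (r = 0.983) and then Fkbp5 (0.980), and AC154912.5 was most like AC154912.3 and then Tmem87b (0.983). E230001N04Rik was most like Tns2 (0.981), which encodes a tensin of focal adhesions, and Kansl3 (0.981), and 9530026P05Rik was most like Tns2 (0.980) and Ifi207 (0.978). Gm27252 was most like Nop53 (0.978), a ribosome biogenesis gene, and E230001N04Rik (0.968).

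For the genes that changed most in few tissues, the large changes weigh most in r. Gm15441 was most like Psap (0.993), the gene of the lysosomal protein prosaposin, and Gm11789 (0.982), while Txnip had an r of 0.635 with it and ranked 473rd. AC123853.3 was most like Ndst1 (0.979), a heparan sulfate enzyme gene, and Shf (0.974). E030018B13Rik was most like Mup8 (0.980), a major urinary protein gene, and Cgref1 (0.978), and without liver the first r was 0.825. Gm15998 was most like Serpina7 (0.979), the gene of thyroxine-binding globulin, and Gm48633 (0.973), and without liver the first r was 0.685. Without liver the first r was 0.989 for Gm15441 and 0.946 for AC123853.3, but the large change in kidney or lung then remains in it, so that neither value is a sign of stability.

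**Figure D5:**
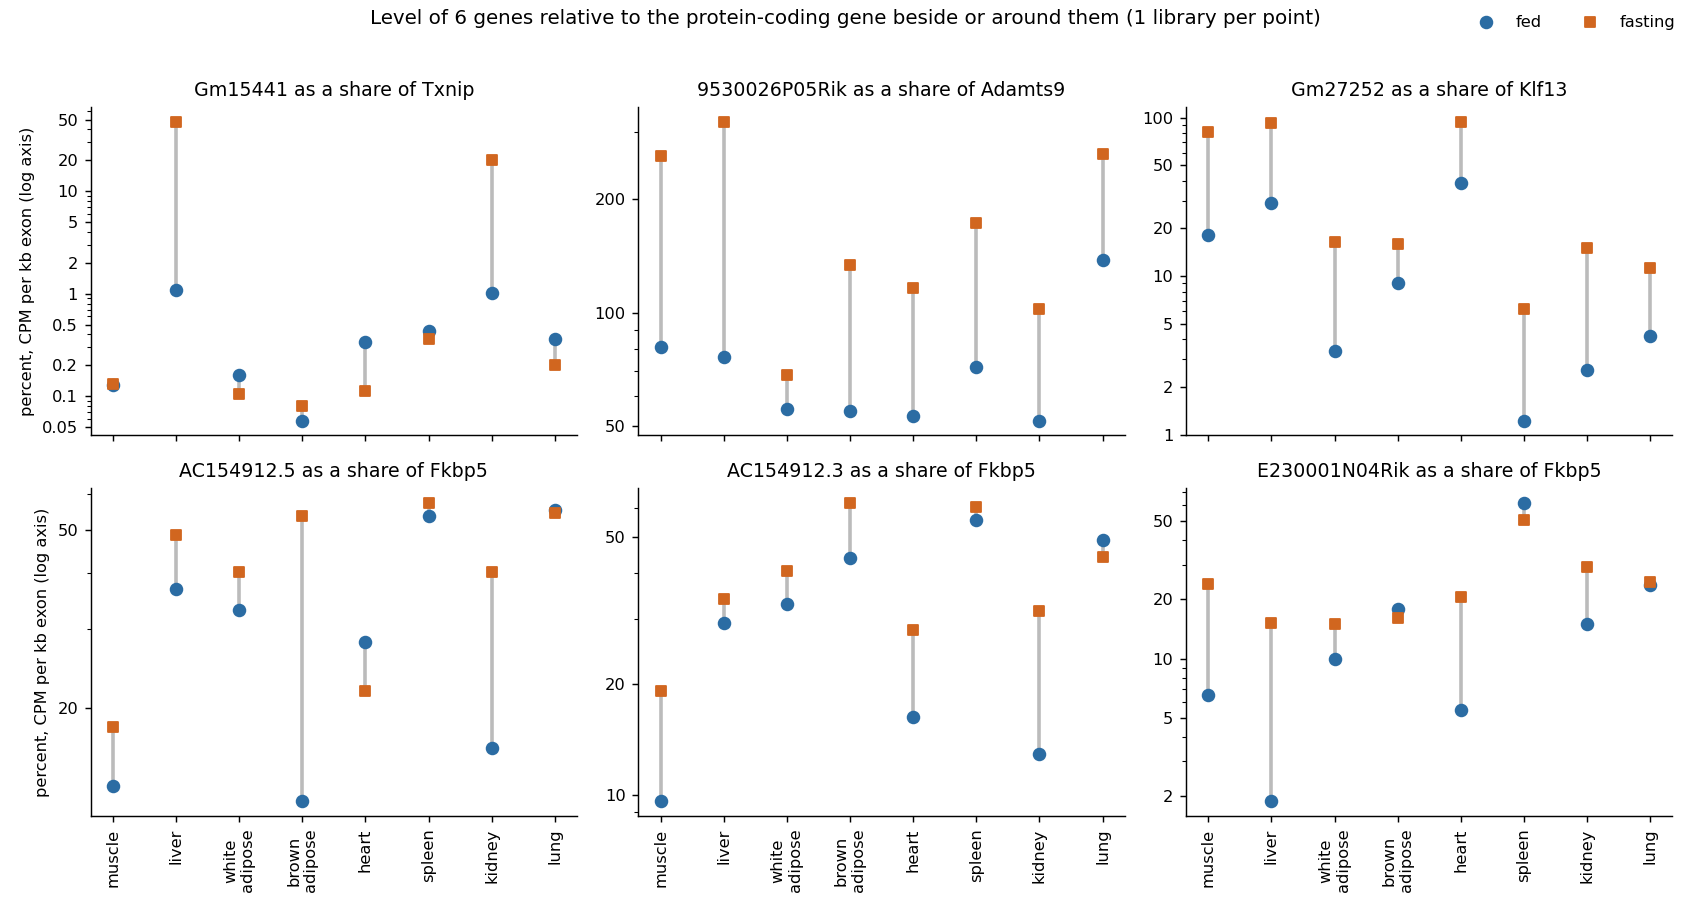
Level per kilobase of exon of 6 of the genes as a percent of the protein-coding gene beside or around them (log axis, a different scale in each panel), by tissue, blue circles for fed and orange squares for fasting, 1 library per point. The share of 9530026P05Rik in Adamts9 and of Gm27252 in Klf13 was larger with fasting in all 8 tissues, and that of Gm15441 in Txnip was raised far above the fed range in liver and kidney.

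Lists of known targets of the fasting signals, chosen with earlier results of these data known, were read from the same fit, in which 2.31% of all genes rose and 2.08% fell. Of 12 targets of the glucocorticoid receptor, Fkbp5 among them, 9 (75%) rose and none fell in the edgeR fit, with a median log2 change of 1.30, against -0.01 over all genes tested. Klf9, a transcription factor gene, rose by 0.78 (SE 0.13, adjusted p = 0.0154), and Pik3r1, a subunit of PI3-kinase, had a log2 change of -0.13 (SE 0.16, adjusted p = 0.659). Of 13 PPAR-alpha targets tested 7 (53.8%) rose and none fell (median 1.36), among them Pdk4, which restrains glucose oxidation, by 3.05 (SE 0.44, adjusted p = 0.00943). Of 11 FoxO targets 2 (18.2%) rose and none fell (median 0.37), and the muscle ubiquitin ligases Fbxo32 and Trim63 had log2 changes of 0.92 (SE 0.25, adjusted p = 0.0638) and 0.87 (SE 0.44, adjusted p = 0.260).

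Other noncoding genes are given for scale. Of 40 well-known long noncoding RNAs tested, 6 rose (15%) and 2 fell (5%), beside 2.31% and 2.08% of all genes, with a median log2 change of 0.14. Malat1, the most abundant, had a log2 change of 0.14 (SE 0.12, edgeR adjusted p = 0.501), and Neat1, the scaffold of paraspeckles, one of -0.30 (SE 0.20, adjusted p = 0.382). Of 2306 genes of noncoding types without the 9, 2.56% were called higher and 0.694% lower, with a median of 0.05, and of 13870 protein-coding genes 2.36% and 2.43%, with a median of -0.02.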

How the data were processed

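Short-read RNA-Seq of 8 tissues from fed and fasting mice was analysed, 1 library per tissue and state from tissue of 3 pooled mice, grouped by the sample labels. Per the authors' methods and processing notes, strand-specific paired reads of 100 bases went through fastp 0.23.2 and FastQC 0.11.8, HISAT2 2.2.1.0 placed them on GRCm38, and featureCounts (Subread 2.0) assigned them to genes of GENCODE mouse release 24. They deposited raw counts per gene, without normalization, beside each gene's length and coordinates. The length and coordinates were used for location, exon overlap and levels per kilobase. Whether reads or read pairs were counted is not given in the sources used here. The table held no counts of mitochondrial genes.

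The 9 genes and all lists were chosen with earlier results of these data known. Symbols were matched by identifier to GENCODE M21 of the same build for 55144 of 55385 genes. Transcript sequences and the exons shown or aligned for Gm15441 and the Scd genes came from M21. Other exons and exon lengths came from the deposited coordinates and lengths. Fold changes compare fasting with fed CPM after adding 0.01 to each. Ratios carry exact 95% binomial intervals of the 2 counts given the library totals, and a share of genes carries a Wilson interval. Within tissues Fisher's exact test (two-sided) served as the paper's call rule.

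Across tissues, counts were fitted with edgeR 4.0.16 (R 4.3.3) as tissue plus state, with TMM factors, filterByExpr by state and the quasi-likelihood test, on 7 residual degrees of freedom, with Benjamini-Hochberg adjustment over all genes and a threshold of 0.05. The 8 tissues stand in for replicates though they share both pools, so these p-values measure the spread of the fasting change between tissues. A planned test of the 9 genes' levels between tissues is not reported, because their selecting values enter the tissue means. The fit, the within-tissue calls and the similarity measure were tested on simulated data, and the strand and sequence steps were not. Named genes were the 9, genes overlapping them, the nearest gene on each side with at least 1 CPM in 1 library, the 2 most similar genes with a mean of at least 1 CPM, and the 2 highest genes of each list, of which 1 is not reported here. Scd1, Scd3, Scd4, Nppa, Ucp1, Cidea, Dio2, Cela1 and Gm15441's exon were added after values were seen. Alternatives were other scalings, pseudocounts, filters, DESeq2 1.42.0, no tissue term, robust dispersion and each tissue left out. The fit was first run with filterByExpr on the full design, which keeps more genes, and the filter by state was made the main one after that run. The full-design filter is kept as an alternative added after seeing the data. Intervals and sequence steps ran in Python 3.11.15 with scipy 1.17.1, tables in pandas 2.3.3 and numpy 2.4.6, plots in matplotlib 3.10.9.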

Additional observations from a re-analysis of the deposited data

Results flagged for a closer look

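Gm15998 and AC123853.3 each had libraries whose counting intervals lay on opposite sides of no change in different tissues. For Gm15998 the log2 change was -5.25 in liver and 1.13 in lung. For AC123853.3 it was -7.34 in lung and 1.95 in spleen, the spleen value resting on 3 fed and 15 fasting counts. With 1 library per tissue and state the difference between tissues was not tested for either gene. In fed lung the atrial gene Nppa was at 198 CPM against 27.4 CPM in fasting lung, and in spleen the summed pancreatic acinar genes were at 370 CPM fed and 11.5 CPM fasting, and the part of either in these values was not tested. The brown adipose marker Ucp1, in view of the high level of AC123853.3 in brown adipose tissue, was at 3.49 CPM in fed and 1.44 CPM in fasting lung, and at 2.08 and 1.64 CPM in fed and fasting liver.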

How the results depend on the processing

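The fit pairs the fed and the fasting library of each tissue through its tissue term, and a block by replicate number could not be made because the labels carry no replicate numbers. Across tissues, edgeR called 400 genes higher and 359 lower. With the filter by design these were 244 and 198, with DESeq2's test 861 and 1003, and with library totals alone 638 were lower. Without the tissue term edgeR called 0 higher and 1 lower, with 133 genes at an unadjusted p under 0.05, and Txnip, Fkbp5, Gm44224, Gm43923 and Gm44220 lost their call. With each tissue left out in turn the calls ran from 104 (without brown adipose) to 340 (without spleen) higher and from 52 to 381 lower. They were also fewer by over 1.5 times without heart (115 and 60), kidney (208 and 156), lung (141 and 93) and muscle (144 and 76), and, for lower genes, white adipose (205). Gm44224 missed the threshold without brown adipose (adjusted p = 0.0602) and without heart (adjusted p = 0.0542), Scd2 passed it with DESeq2 (adjusted p = 0.00942), and in every other alternative these neighbours kept their side. The cause was not tested. The change of Magi1 lay near 0 and turned negative with library totals (-0.037), DESeq2 size factors (-0.0036), no tissue term (-0.014) and DESeq2's test (-0.0037), and with a tissue left out it ran from -0.036 (without lung) to 0.033 (without brown adipose), being negative also without muscle (-0.014) and spleen (-0.020).

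Of the pairs of gene and tissue, 44 to 46 were called higher and 3 to 4 lower under every alternative scaling, pseudocount and filter tried. A pseudocount of 1 CPM moved the mean log2 change over tissues by over 1.5 times for E030018B13Rik (2.16 to 0.80), Gm15998 (-0.42 to -0.27), AC123853.3 (-1.83 to -0.84), E230001N04Rik (2.98 to 1.87) and Gm27252 (1.91 to 0.99). With library totals, genes that reached 1 CPM had a median log2 change of -0.14 (muscle) and -0.13 (liver), which TMM factors brought to -0.05 and -0.0023. The share at 0 among genes covered on the same strand was 90.6% when 90% coverage sufficed. Similarity moved with log2(CPM + 0.1) to 0.988 for Gm15441 and Psap, 0.705 for E030018B13Rik and Mup8, 0.879 for Gm15998 and Serpina7, 0.966 for AC123853.3 and Ndst1, 0.959 for E230001N04Rik and Tns2, 0.973 for AC154912.5 and AC154912.3 and 0.970 for Gm27252 and Nop53. With Spearman's rho these were 0.953, 0.722, 0.461, 0.735, 0.953, 0.918 and 0.80, and 0.941 for 9530026P05Rik and Tns2. At these depths no change can be read where both libraries hold 3 counts or fewer.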
